A study of Mus musculus with 6 samples.

Results

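The proteins of the primary, or azurophil, granule were followed through 6 single-cell RNA-seq libraries of immortalised mouse granulocyte-macrophage progenitor cells (iGMPs). The set holds 7 genes, Mpo, Elane, Prtn3, Ctsg, Ctsc, Srgn and Ms4a3, out of 27998 gene columns of the count table, and all 7 were found in that table. Members were taken by gene name, with no threshold on a measured value. The cells, Lys-GFP-ER-HoxA9 cells of strain C57BI/6, carry HOXA9 fused to an estrogen receptor domain and a green fluorescent reporter of the Lysozyme gene, and grow as progenitors in RPMI medium with serum, stem cell factor and estradiol (E2, 150 ng/ml). In the CAF-1 OFF arm, 500 µM IPTG was added for 48 or 96 h to switch on a hairpin against Chaf1b, which encodes part of CAF-1, a chaperone of histones, while E2 was kept. In the HOXA9 OFF arm, E2 was washed out for 48 or 96 h, which inactivates the fusion protein. Each arm has its own 0 h library, grown with E2 and without IPTG. Per the study, the CAF-1 OFF libraries came from a clonal line with the Chaf1b hairpin and the HOXA9 OFF libraries from one with a control hairpin, so that clone and treatment cannot be told apart between the arms. There was 1 library per group, so no test between groups was possible and no p-value is given.

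Primary granules are made at the promyelocyte stage, the earliest stage of granule formation in the neutrophil lineage, and their genes are usually switched off again before secondary granules form. Myeloperoxidase (Mpo) makes hypochlorous acid from hydrogen peroxide. Neutrophil elastase (Elane), proteinase 3 (Prtn3) and cathepsin G (Ctsg) are serine proteases that cut microbial and matrix proteins. They are made as inactive precursors, and cathepsin C (Ctsc) removes an amino-terminal dipeptide to activate them. Serglycin (Srgn) is the proteoglycan whose negatively charged chains hold the proteases in the granule. Ms4a3 is a membrane-spanning protein that is used as a marker of granulocyte-monocyte progenitors.

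Elane and Prtn3 lie next to each other on mouse chromosome 10, and the others lie apart. By the RefSeq annotation of GRCm38.p6, the assembly the authors mapped to, Prtn3 spans chr10:79879667-79883174 and Elane chr10:79886312-79888216, both on the plus strand with 3138 bases between them. Mpo spans chr11:87793784-87804412 and Ctsc chr7:88278024-88315861, both on the plus strand. Ctsg spans chr14:56099885-56102574, Srgn chr10:62493833-62527445 and Ms4a3 chr19:11629499-11640851, all on the minus strand.

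The 250 bases before the annotated start of 5 of the genes are printed below, 5′ to 3′ in the direction of transcription, because these 5 are the members whose levels moved farthest and in different order. All 7 genes were found in the RefSeq promoter table. Capitals mark matches, on either strand, to 4 short motifs of factors known at myeloid promoters, which are TTNCNNAA for C/EBP factors, GAGGAA for PU.1 and other ETS factors, TGTGGT for RUNX factors and AACNG for MYB. The Elane and Prtn3 stretches are chr10:79886062-79886311 and chr10:79879417-79879666, Mpo is chr11:87793534-87793783, Ctsg is chr14:56102575-56102824 read on the minus strand, and Ms4a3 is chr19:11640852-11641101 read on the minus strand.
Elane: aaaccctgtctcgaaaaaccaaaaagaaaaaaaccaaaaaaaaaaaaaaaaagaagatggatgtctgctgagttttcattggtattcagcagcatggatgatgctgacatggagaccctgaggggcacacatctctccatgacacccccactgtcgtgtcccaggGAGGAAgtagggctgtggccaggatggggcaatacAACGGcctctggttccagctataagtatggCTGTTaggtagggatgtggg
Prtn3: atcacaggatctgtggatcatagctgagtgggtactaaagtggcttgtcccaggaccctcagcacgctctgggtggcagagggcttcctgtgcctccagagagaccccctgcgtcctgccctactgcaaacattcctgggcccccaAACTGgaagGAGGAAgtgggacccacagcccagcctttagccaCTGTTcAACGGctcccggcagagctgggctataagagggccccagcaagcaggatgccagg
Mpo: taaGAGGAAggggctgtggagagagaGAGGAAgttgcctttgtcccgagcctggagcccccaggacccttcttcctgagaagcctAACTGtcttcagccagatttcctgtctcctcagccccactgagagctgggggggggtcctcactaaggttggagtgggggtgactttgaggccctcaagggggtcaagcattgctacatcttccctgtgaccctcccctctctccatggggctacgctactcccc
Ctsg: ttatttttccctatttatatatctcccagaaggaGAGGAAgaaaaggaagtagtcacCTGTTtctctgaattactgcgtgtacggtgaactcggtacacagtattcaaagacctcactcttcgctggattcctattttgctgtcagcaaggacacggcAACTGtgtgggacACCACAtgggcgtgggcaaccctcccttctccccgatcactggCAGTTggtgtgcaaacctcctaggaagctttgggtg
Ms4a3: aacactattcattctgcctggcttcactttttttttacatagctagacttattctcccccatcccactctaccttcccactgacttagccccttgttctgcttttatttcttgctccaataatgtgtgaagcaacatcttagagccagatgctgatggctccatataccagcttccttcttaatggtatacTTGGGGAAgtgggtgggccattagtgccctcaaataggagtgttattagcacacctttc

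GAGGAA was present before Elane, Prtn3, Mpo and Ctsg, and also before Ctsc, while 23.3% of 32851 promoters of the same length held it. It lay at bases -85 to -80 of Elane and -95 to -90 of Prtn3, counted back from the annotated start, and farther out at -216 to -211 of Ctsg and at 2 places of Mpo, -247 to -242 and -224 to -219. AACNG, held by 74.2% of all promoters, was present in the same genes, including the letters AACGG at -50 to -46 of Elane and -55 to -51 of Prtn3. Ms4a3 held neither of these, and its match was to TTNCNNAA at -59 to -52 on the other strand, a motif found in 36.8% of promoters. Ctsg alone among the 5 held TGTGGT, on the other strand at -79 to -74, against 14.0% of promoters. Srgn has 2 annotated promoters, of which the upstream window held AACNG only and the other window 5 matches to TTNCNNAA, some overlapping, besides TGTGGT and AACNG. A match describes letters in this window and no more.

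Levels are given as CPM, the unique molecular identifiers (UMIs, 1 per captured transcript molecule) of a gene scaled to the total of its library, and runs of 3 values are in the order 0, 48 and 96 h. Because 3′-end UMI counts do not grow with transcript length, levels of different genes were set side by side without dividing by length. Libraries held 473 to 1510 kept cells and 3524285 to 5589486 UMIs, with a median of 5956 to 6571 UMIs per cell in CAF-1 OFF and of 8660, 3535.5 and 2043.5 at 0, 48 and 96 h of HOXA9 OFF. CPM is a share of a library's UMIs, so a gene can rise in CPM without rising in UMIs per cell. The filter on mitochondrial UMIs removed between 0.198% and 66.2% of the barcodes of a library, with both extremes in HOXA9 OFF. Chaf1b, the target of the hairpin, was at 35.6, 3.22 and 6.49 CPM along the CAF-1 OFF arm and at 51.5, 15.3 and 1.13 CPM along the HOXA9 OFF arm. Among 8 progenitor markers, Cd34 stayed near its 0 h level in CAF-1 OFF, at 756, 738 and 707 CPM. Kit was at 82.8, 73.9 and 55.6 CPM there and Flt3 at 99.4, 99.5 and 63.0 CPM. In HOXA9 OFF Kit was at 80.9, 9.98 and 1.13 CPM, Cd34 at 660.1, 67.2 and 28.4 CPM and Flt3 at 77.3, 1.88 and 3.97 CPM. Fcgr3, Spi1 and Csf3r of the same list of 8 were above their 0 h level at both later times of both arms. Summed neutrophil markers went from 33.2 to 716 and 1193 CPM along the CAF-1 OFF arm and from 28.2 to 10334 and 150912 CPM along the HOXA9 OFF arm. Barcode sequences found in more than 1 library numbered 34 in the whole table and 16 among the kept cells.

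Before any treatment, cells already carried a heavy load of primary granule transcripts, with Ctsg in front and Elane low. Summed over Mpo, Elane, Prtn3 and Ctsg, the level was 6333, 8647 and 11626 CPM at 0, 48 and 96 h of CAF-1 OFF, and 5516, 4324 and 65.0 CPM along the HOXA9 OFF arm. This amounts to 41.3, 52.1 and 68.8 UMIs per cell in CAF-1 OFF and to 48.9, 16.4 and 0.152 UMIs per cell in HOXA9 OFF. The sum was highest at 96 h of CAF-1 OFF and down to traces at 96 h of HOXA9 OFF.

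The 4 proteins did not keep their proportions (the stacked plot of shares). Ctsg made up 54.8%, 47.8% and 51.2% of their summed UMIs in CAF-1 OFF, and 60.0%, 19.3% and 17.9% along the HOXA9 OFF arm. Prtn3 went the other way in HOXA9 OFF, from 21.4% to 48.3% and 48.0%, while its CAF-1 OFF shares were 20.2%, 19.4% and 16.1%. Elane made up 2.03%, 10.6% and 11.9% along the CAF-1 OFF arm and 0.874%, 11.8% and 5.68% along the HOXA9 OFF arm. Mpo held a share between 17.7% and 28.4% in each of the 6 libraries. The HOXA9 OFF mixture at 96 h rests on 229 UMIs, of which 177 lay in 2 cells, so it is mostly the mixture of those cells. In the other 1508 cells, an alternative chosen after the data were seen, 52 UMIs were left, and Prtn3 made up 76.9% (63.2 to 87.5) of them, Mpo 9.62%, Elane 7.69% and Ctsg 5.77%.

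**Figure D1:**
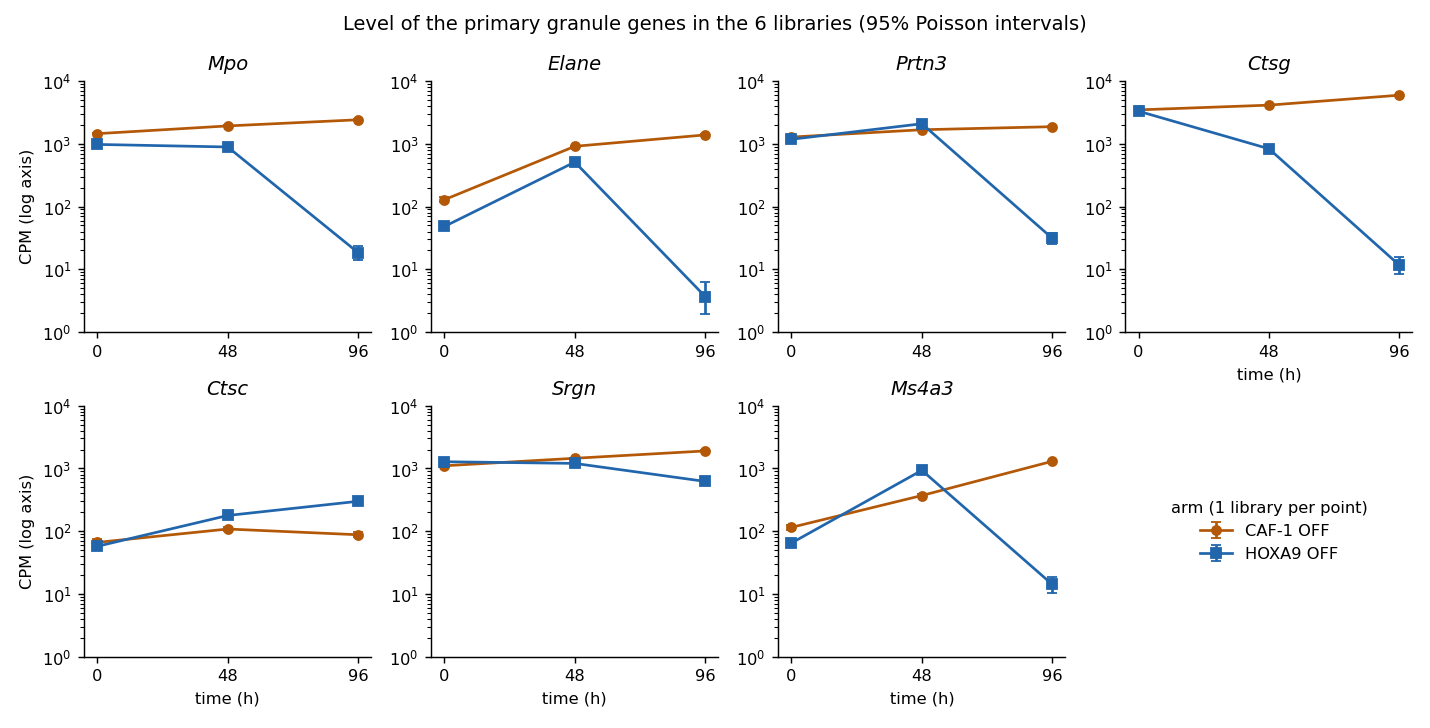
Level of each of the 7 genes in CPM on a log axis against hours of treatment, with a point for each of the 6 libraries, a line for each arm and bars for exact 95% Poisson intervals. In HOXA9 OFF, the lines of Mpo, Elane, Prtn3, Ctsg and Ms4a3 end between 3.69 and 31.2 CPM at 96 h, that of Srgn at 621 CPM and that of Ctsc at 299.9 CPM.

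**Figure D2:**
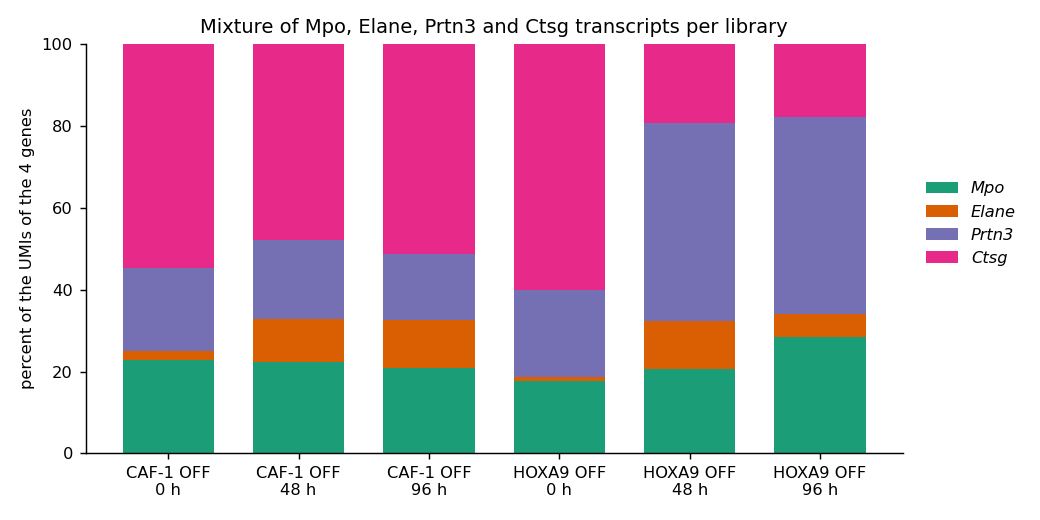
Share of the summed UMIs of Mpo, Elane, Prtn3 and Ctsg that fell on each of the 4, in percent, as a stacked bar per library. Ctsg is the main part of every CAF-1 OFF bar and of the HOXA9 OFF bar at 0 h, and Prtn3 is the main part of the HOXA9 OFF bars at 48 and 96 h, the last of which rests on 229 UMIs, 177 of them in 2 cells.

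Elane had the steepest early rise of the proteases. It was at 129, 913 and 1386 CPM along the CAF-1 OFF arm and at 48.2, 512 and 3.69 CPM along the HOXA9 OFF arm. The 48 h levels were 7.10-fold (6.49 to 7.77) and 10.6-fold (9.20 to 12.3) above the 0 h level of their arm, where ranges are exact 95% intervals that cover counting error only. In CAF-1 OFF the gene had reached 65.9% of its 96 h level by 48 h. In HOXA9 OFF it fell 139-fold (81.0 to 261) from 48 to 96 h, to a level 13.1-fold (7.47 to 25.0) below its own 0 h level. With a 5% limit on mitochondrial UMIs in place of 10%, which left 293, 247 and 162 CAF-1 OFF cells for thinning, the log2 ratios to 0 h went from 2.74 to 3.73 at 48 h and from 3.33 to 4.27 at 96 h of CAF-1 OFF, and from 3.16 to 3.74 at 48 h of HOXA9 OFF. The uninduced libraries already differed for this gene, with HOXA9 OFF 2.67-fold (2.27 to 3.15) below CAF-1 OFF.

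Ms4a3 took the course of Elane in both arms, with another pace. Its levels were 115, 371 and 1302 CPM along the CAF-1 OFF arm and 64.9, 934 and 14.2 CPM along the HOXA9 OFF arm. At 48 h it stood at 28.5% of its 96 h level in CAF-1 OFF, against 65.9% for Elane, and most of its increase came between 48 and 96 h, when it rose 3.51-fold (3.34 to 3.69). The 48 h level was 3.21-fold (2.91 to 3.56) above 0 h in CAF-1 OFF and 14.4-fold (12.7 to 16.3) above 0 h in HOXA9 OFF. By 96 h it was 11.3-fold (10.3 to 12.4) higher than at 0 h in CAF-1 OFF and 4.58-fold (3.37 to 6.32) lower in HOXA9 OFF.

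Ctsg, the most abundant of the 7 at 0 h, was the member that fell by 48 h of HOXA9 OFF. Its levels were 3309, 833 and 11.6 CPM in that arm, so that 25.2% of the 0 h level was left at 48 h, a 3.97-fold (3.84 to 4.11) drop, and 0.352% at 96 h. In CAF-1 OFF it was at 3472, 4131 and 5951 CPM, which is 1.71-fold (1.68 to 1.75) the 0 h level at 96 h and short of the 2-fold size used for a call. All log2 ratios here are of CPM with 10 added to both sides, which understates the change of low genes.

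Prtn3 and Mpo stayed high for longer in HOXA9 OFF than Ctsg did. Prtn3 was at 1181, 2088 and 31.2 CPM, which is 1.77-fold (1.71 to 1.83) the 0 h level at 48 h and 37.8-fold (31.3 to 46.1) lower at 96 h. Mpo was at 978, 890.3 and 18.4 CPM, which is 91.1% of the 0 h level at 48 h and 53.0-fold (41.5 to 68.8) lower at 96 h. Per cell, Prtn3 had 10.5, 7.90 and 0.0728 UMIs and Mpo 8.66, 3.37 and 0.0430, while the total per cell fell too. In CAF-1 OFF neither reached the 2-fold size, with Prtn3 at 1281, 1676 and 1874 CPM and Mpo at 1451, 1928 and 2415 CPM. The Prtn3 ratio at 48 h of HOXA9 OFF depended on the scaling, being 0.82 on the log2 scale by total UMIs and 1.12 with TMM factors, past the 2-fold size, and the Mpo ratio of -0.13 turned to 0.17 with TMM.

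Ctsc, the activator of the serine proteases, did not follow its substrates. It was at 66.4, 108 and 87.9 CPM along the CAF-1 OFF arm, at most 1.63-fold (1.41 to 1.89) the 0 h level. Its HOXA9 OFF levels were 57.5, 178 and 299.9 CPM, a rise of 3.10-fold (2.69 to 3.58) by 48 h and 5.21-fold (4.53 to 6.02) by 96 h. It was the single member whose level was highest in the library in which the proteases were at trace levels.

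Srgn, which holds the granule contents, was at 1103, 1453 and 1901 CPM along the CAF-1 OFF arm and at 1279.7, 1203 and 621 CPM along the HOXA9 OFF arm. At 96 h it was thus 1.72-fold (1.67 to 1.79) the 0 h level in CAF-1 OFF and 2.06-fold (1.96 to 2.17) lower in HOXA9 OFF. The second of these passed the size for a call by total UMIs (-1.03 on the log2 scale) and missed it with TMM factors (-0.55), with median-of-ratios factors (-0.47) and over all barcodes (-0.84). Its HOXA9 OFF ratio at 48 h, -0.09, turned to 0.21 with TMM.

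Counted over the 7 genes, members were called lower in HOXA9 OFF and not in CAF-1 OFF. A gene was called when it differed at least 2-fold, and the same rule over the 4789 genes that averaged 20 CPM or more gives the background. In CAF-1 OFF, 2 of 7 were called higher and 0 lower at 48 h, where 2.76% of all tested genes were called higher and 0.0418% lower, and again 2 higher and 0 lower at 96 h, where the background was 5.22% and 0.856%. The genes called were Elane and Ms4a3 at both times. In HOXA9 OFF, 3 were called higher (Elane, Ms4a3 and Ctsc) and 1 lower (Ctsg) at 48 h, against 13% and 19.6% of all tested genes, and 1 higher (Ctsc) and 6 lower at 96 h, against 18.1% and 39.8%. From 48 to 96 h, 1 was called higher (Ms4a3) and 0 lower in CAF-1 OFF, with a background of 0.71% and 0.167%. Over the same interval 0 were called higher and 5 lower in HOXA9 OFF, with a background of 6.56% and 17.8%, and the 5 were Mpo, Elane, Prtn3, Ctsg and Ms4a3. Between the uninduced libraries 0 were called higher and 1 lower (Elane) in HOXA9 OFF, with a background of 0.752% and 0.146%. The median log2 ratio of the 7 was 0.41 and 0.78 at 48 and 96 h of CAF-1 OFF, and for HOXA9 OFF it was 0.82 and -2.09, beside 0, -0.08, -0.23 and -0.56 over all genes tested. Both times of an arm share its 0 h library.

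At 96 h of HOXA9 OFF, what was left of the proteases lay mostly in 2 of 1510 cells. These 2 cells, the only ones in which all 4 of Mpo, Elane, Prtn3 and Ctsg had a UMI, held 60 of the 65 Mpo UMIs, 38 of the 41 Ctsg UMIs, 9 of the 13 Elane UMIs and 70 of the 110 Prtn3 UMIs. They also held 31 of the 50 Ms4a3 UMIs, but 4 of 1057 Ctsc UMIs and 26 of 2190 Srgn UMIs. They were the deepest cells of the library, with 13329 and 11697 UMIs against a median of 2043.5. S100a8 and S100a9, calcium-binding proteins of maturing neutrophils, gave 0.330% and 0.274% of their UMIs against a library median of 14.4%. Their barcodes occurred in no other library.

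Without those 2 cells, an alternative chosen after the data were seen, the trace levels were lower still. Mpo stood at 1.43 CPM, 684-fold (293 to 2109) below its 0 h level, and Prtn3 at 11.4 CPM, 103-fold (75.7 to 145) below. Ctsg was left with 3 UMIs, a ratio of 3860 (1320 to 18719) between the 0 h level and this. Elane was at 1.14 CPM, or 42.2-fold (16.2 to 156) below 0 h, and Ms4a3 at 5.43 CPM, or 12.0-fold (7.51 to 20.2) below. Srgn at 618 CPM and Ctsc at 301 CPM were close to their values over all cells. The 5% mitochondrial limit moved the log2 ratio of Mpo at 96 h from -5.12 to -6.13, that of Ctsg from -7.26 to -7.96 and that of Elane from -2.09 to -1.44.

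The single cells showed in what share of cells each member was detected, a share that also rises with the level of a gene. Each cell was thinned to 1300 UMIs so that depths were equal, and a gene was detected when at least 1 UMI remained. In CAF-1 OFF, Ctsg was detected in 92.9%, 97.6% and 99.6% of cells at 0, 48 and 96 h, and Mpo in 81.7%, 87.5% and 90.7%. Elane went from 8.85% (6.75 to 11.3) to 39.4% (36.2 to 42.6) and 60.9% (57.6 to 64.1), and Ms4a3 from 9.32% to 29.3% and 67.6%. In HOXA9 OFF at 48 h, the shares were 31.8% for Mpo, 19.7% for Elane, 68.5% for Prtn3, 30.4% for Ctsg and 38.7% for Ms4a3, out of 1376 cells. At 0 h of the same arm they were 67.2%, 3.81%, 70.8%, 94.3% and 6.14%. Mpo and Ctsg were thus seen in fewer cells at 48 h, Elane and Ms4a3 in more, and Prtn3 in nearly the same share. Prtn3 was higher in CPM at 48 h but lower in UMIs per cell before thinning, at 7.90 against 10.5. Without thinning, the 48 h shares were 44.0%, 31.6%, 79.1%, 42.5% and 51.3%.

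Free RNA in droplets can give UMIs in cells that do not express a gene, so cells of another kind were taken as a yardstick. Whether those cells express these genes themselves was not tested, so their shares are not a measure of free RNA alone. At 48 h of HOXA9 OFF, 203 Prg2-rich cells drew at least 2% of their UMIs from Prg2, the major basic protein of eosinophil granules, and summed eosinophil markers were at 129498 CPM there. After thinning, Elane was detected in 3.16% of these cells, Prtn3 in 13.7%, Mpo in 17.9% and Ctsg and Ms4a3 each in 6.84%. Their median depth was 3568 UMIs, against 3535.5 in the whole library. The yardstick holds for that library alone, since the other libraries had 3 to 31 Prg2-rich cells. At 96 h of HOXA9 OFF, detection was 0.145% for Mpo, 0.0727% for Elane, 0.654% for Prtn3, 0.363% for Ctsg and 0.654% for Ms4a3.

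Mpo and Ctsg were less evenly shared among cells at 48 h of HOXA9 OFF than at 0 h. The 10% of cells with the most Mpo held 63.0% of its thinned UMIs at 48 h and 31.3% at 0 h. For Ctsg these shares were 62.1% and 23.6%, and for Prtn3 34.4% and 31.6%. The variance of Mpo UMIs per thinned cell was 4.13 times its mean at 48 h and 1.44 times at 0 h, where a Poisson count gives 1. In CAF-1 OFF the most uneven member was Elane, with a variance of 3.82, 4.72 and 3.55 times its mean at 0, 48 and 96 h. The share of its UMIs in the top 10% of cells went from 56.8% at 48 h to 41.5% at 96 h, when more cells had it.

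All 4 of Mpo, Elane, Prtn3 and Ctsg were detected together in 8.21%, 33.3% and 51.8% of thinned cells at 0, 48 and 96 h of CAF-1 OFF. The product of the 4 single shares, which is what independent detection would give, was 4.79%, 28.7% and 48.0%. In HOXA9 OFF the observed shares were 2.33% and 11.4% at 0 and 48 h, beside products of 1.71% and 1.30%. No thinned cell of 1376 had all 4 at 96 h, which allows a share of up to 0.218%, taken as 3 counts of the total. The gap to the product was widest at 48 h of HOXA9 OFF. That library also had more cells with 0 of the 4, 25.7% against 12.0% by the product, and fewer with 2, 16.6% against 35.1%. Thinning lowers these shares, and without it the CAF-1 OFF libraries had all 4 in 19.0%, 60.1% and 84.0% of their cells and the HOXA9 OFF libraries in 14.6%, 22.7% and 0.132%.

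**Figure D3:**
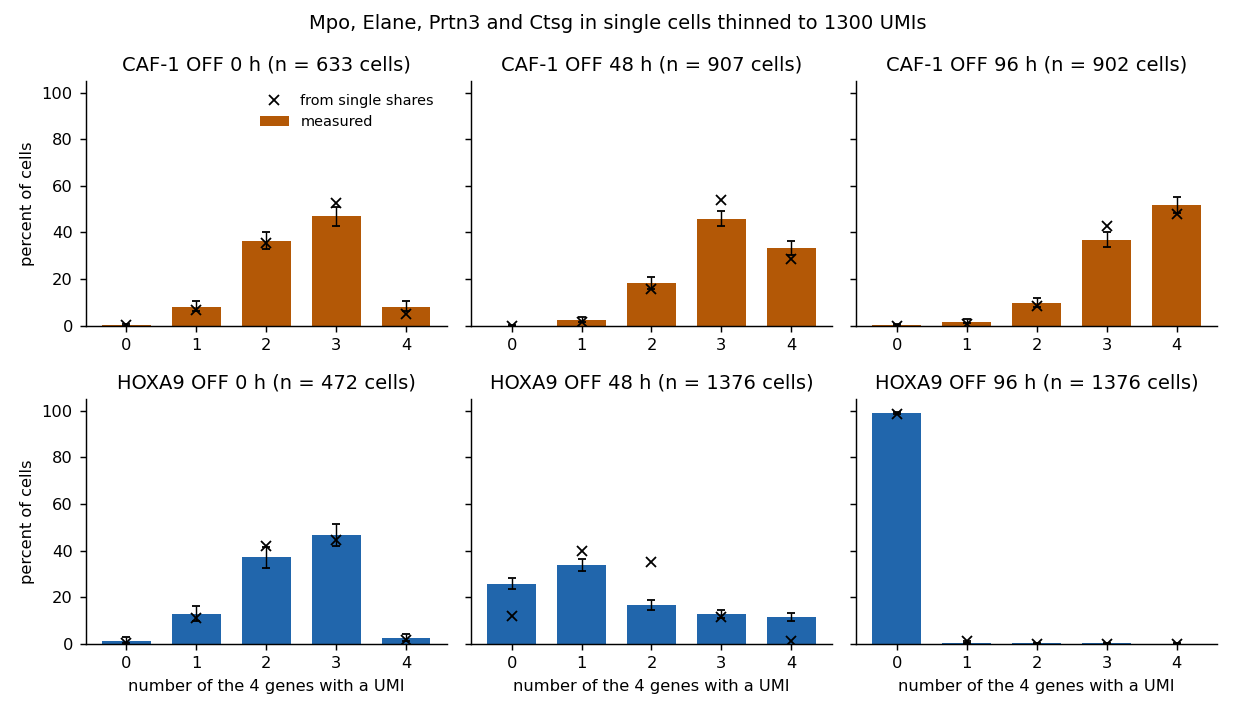
Share of cells, in percent, in which 0, 1, 2, 3 or 4 of Mpo, Elane, Prtn3 and Ctsg had a UMI after thinning to 1300 UMIs, a panel per library, with bars for the observed share, their exact 95% binomial intervals and marks for the share that the product of the single shares gives. The HOXA9 OFF library at 48 h has 25.7% of its cells at 0 and 11.4% at 4, both above the marks, and 99.2% of cells at 96 h are at 0.

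Cells with Prtn3 and neither Mpo nor Ctsg were frequent at 48 h of HOXA9 OFF and rare elsewhere. At least 1 of Mpo and Ctsg was detected in 99.5%, 99.4% and 99.9% of CAF-1 OFF cells and in 98.1% of HOXA9 OFF cells at 0 h. At 48 h of HOXA9 OFF this was 42.2% (39.5 to 44.8). Prtn3 without either was found in 0.636% of cells at 0 h and in 31.8% (29.3 to 34.3) at 48 h, or 437 of 1376 cells. In CAF-1 OFF that combination stayed at or below 0.551%. At 48 h of HOXA9 OFF the single shares were 68.5% for Prtn3, 31.8% for Mpo and 30.4% for Ctsg. Independent detection at these shares would give many such cells too, so they are not read as a separate group.

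At 48 h of HOXA9 OFF, cells with Elane more often had the other proteases than cells without it. In that library Mpo was detected in 72.7% of cells with Elane and in 21.7% of cells without it. The corresponding shares were 70.8% and 20.5% for Ctsg, 95.6% and 61.8% for Prtn3 and 73.1% and 30.2% for Ms4a3. Ctsc showed no such split, with 18.8% and 18.1%. In the libraries where nearly all cells had Ctsg there was little split for it, with 94.4% and 94.3% at 0 h of HOXA9 OFF and 99.6% and 99.4% at 96 h of CAF-1 OFF. Pairs of Elane with Ctsg, Elane with Mpo and Mpo with Ctsg were found 2.33, 2.29 and 2.07 times as often as the product of their single shares, while Ctsg with Ctsc was found 0.826 times as often.

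Elane and Ms4a3 were found together more often than the product of their shares already at 0 h, though most cells with either lacked the other. Of 90 CAF-1 OFF cells with either at 0 h, 31 had Elane only and 34 Ms4a3 only. Of 42 such HOXA9 OFF cells, 13 had Elane only and 24 Ms4a3 only. At 0 h they met in 3.95% of CAF-1 OFF cells against a product of 0.825%, and in 1.06% (0.345 to 2.45) of HOXA9 OFF cells against 0.234%. At 48 and 96 h of CAF-1 OFF they met in 20.4% against 11.5% and in 45.5% against 41.2%. Cells with Elane and no Ms4a3 UMI made up 19.0% at 48 h and 15.4% at 96 h of CAF-1 OFF, and those with Ms4a3 and no Elane UMI made up 8.93% and 22.2%. In HOXA9 OFF at 48 h, Ms4a3 without Elane (24.3%) was more frequent than Elane without Ms4a3 (5.31%). Over the 21 pairs of the 7 genes, 15 to 18 were above their product in the CAF-1 OFF libraries and in HOXA9 OFF at 0 and 48 h. The median ratio was 1.00 to 1.04 in CAF-1 OFF and 1.06 and 1.25 at 0 and 48 h of HOXA9 OFF, and the 96 h library had too few positive cells to read. A weak correlation of such sparse counts is not read as a result, and the ratios are a description of cells within a library.

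**Figure D4:**
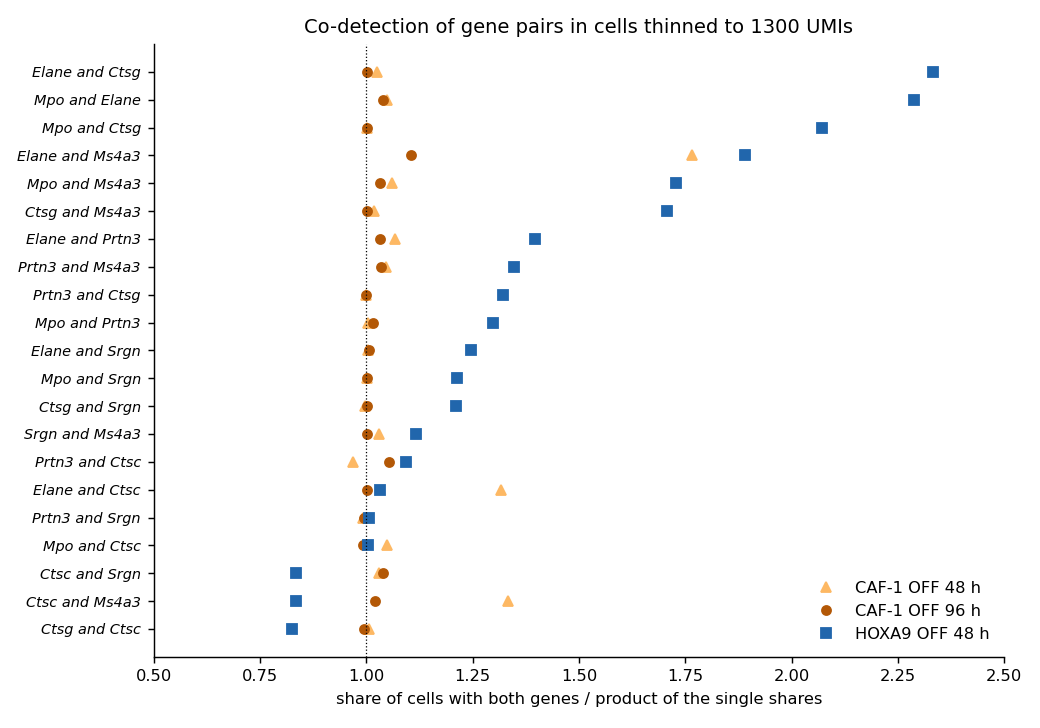
Ratio of the observed share of cells with both genes to the product of the single shares, for the 21 pairs of the 7 genes, after thinning to 1300 UMIs. The libraries drawn are CAF-1 OFF at 48 and 96 h and HOXA9 OFF at 48 h. Elane with Ms4a3 is highest in CAF-1 OFF, at 1.77 at 48 h and 1.10 at 96 h. In the HOXA9 OFF library at 48 h pairs of the proteases reach 2.33.

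Within the HOXA9 OFF library at 48 h, the members peaked at different points along the share of UMIs from S100a8 and S100a9, which mark neutrophil maturation. Mpo stood at 566 CPM in the 415 cells with no such UMI, at 1193 CPM in the 447 cells with up to 0.1%, and at 1054, 513 and 103 CPM in cells with 0.1 to 1% (328 cells), 1 to 5% (141 cells) and over 5% (73 cells). Ctsg followed the same order with 586, 1209, 829.9, 321 and 91.7 CPM. Both were highest in the bin of up to 0.1%. That bin had the deepest cells, with medians of 3453, 4057, 3513.5, 2971 and 2430 UMIs along the bins. Few S100a8 and S100a9 UMIs separate it from the lowest bin, and without Prg2-rich cells, described above, it held 375 cells. The bin is therefore not read as a stage of maturation.

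Elane, Prtn3 and Ms4a3 were highest in the next bin instead. Elane was at 175, 546, 894, 562 and 178 CPM along the 5 bins, and Ms4a3 at 376, 949.6, 1504, 1263 and 691 CPM. Prtn3 was at 1321, 2275, 2885, 1909 and 1371 CPM, and in the bin over 5% it kept more of its level than Mpo and Ctsg did. Srgn declined, with 1308, 1327, 1158, 773 and 345 CPM, and Ctsc stayed between 140.3 and 209 CPM. Without the Prg2-rich cells the lowest bin, then 287 cells, had Mpo at 715, Elane at 230.1 and Prtn3 at 1775 CPM, above the 1371 CPM of Prtn3 over 5%, with the same peaks. The bins are ranges of a share in 1 library, and their order is not time.

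**Figure D5:**
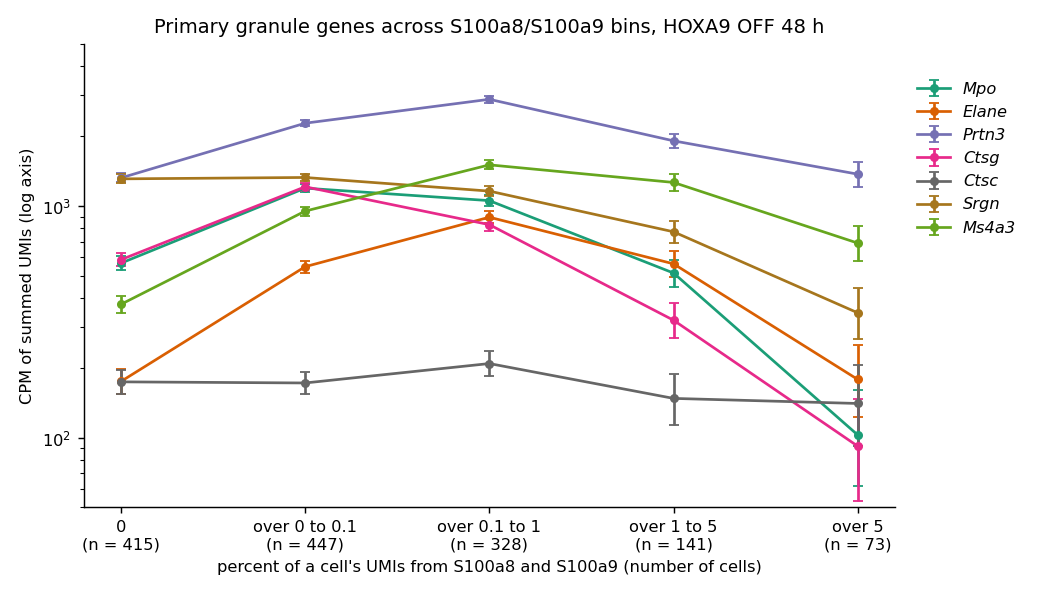
Level of each gene in CPM on a log axis in 5 bins of the share of a cell's UMIs from S100a8 and S100a9, for the HOXA9 OFF library at 48 h, with exact 95% Poisson intervals. Mpo and Ctsg are highest in the bin of up to 0.1%, and Elane, Prtn3 and Ms4a3 in that of 0.1 to 1%.

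Split into classes by a 2% limit, 152 cells were rich in S100a8 and S100a9, 203 in Prg2 and 1049 in neither, and 129 cells lay near the S100 limit, with shares of 1 to 4%. S100-rich cells had Prtn3 at 1457, Ms4a3 at 912, Elane at 349, Mpo at 265 and Ctsg at 157 CPM. Cells rich in neither had 2479, 1086, 612, 1059.6 and 1023 CPM of the same genes. Prg2-rich cells had Prtn3 at 190.5, Ms4a3 at 71.8, Elane at 24.9, Mpo at 265 and Ctsg at 119 CPM, but the highest Srgn level, at 1634 CPM against 511 in S100-rich cells and 1196 in the rest. Ctsc was lowest in Prg2-rich cells, at 34.5 CPM against 120 and 209. At 96 h, when 1288 cells were S100-rich, Ctsc stood at 167 CPM in them and at 899.7 CPM in the 191 cells rich in neither, and Srgn at 478 and 1168 CPM.

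By their ratios to 0 h in the 4 later libraries, the members did not form a block. Mpo paired with Prtn3 and Elane with Ms4a3, while Ctsg, Ctsc and Srgn had no member as their most like gene. The gene most like Mpo was Prtn3 and the reverse, with a root mean square difference of 0.50 on the log2 scale. Elane and Ms4a3 were each other's most like gene at 0.66, followed for both by Prg3, a major basic protein homolog, and Prss57, a serine protease of primary granules. For Ctsg the most like genes were Stmn1 at 0.84, 2810417H13Rik at 1.12 and Dut at 1.13. Mpo ranked 7 for Ctsg, at 1.42, and Prtn3 ranked 63, at 1.85. Ube2c and Birc5, which act in mitosis, came next to Prtn3 for Mpo at 0.66 and 0.67. Rpl3 at 0.78 and Birc5 at 0.93 followed Mpo for Prtn3. Ctsc was closest to Ifngr2, Ccng2 and Megf9, at 0.14 to 0.18, and Srgn to BC028528, Acyp1 and Ssbp2, at 0.09 to 0.12. Likeness over 4 libraries is a description, and low genes lie closer together on this scale. With 10 CPM added, the 0 h level of a gene limits the fall it can show at 96 h of HOXA9 OFF. In that arm Mpo and Prtn3 were at 978 and 1181 CPM at 0 h, and Elane and Ms4a3 at 48.2 and 64.9 CPM. At 96 h most Mpo and Prtn3 UMIs also lay in 2 cells. The part of these in the pairing was not tested.

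The neighbours on the chromosomes did not all move with the members. Of 60 neighbouring protein-coding genes, the nearest 5 on each side of each member where named, 43 had a UMI and 17 were at a mean of at least 20 CPM. Prss57, 84983 bases from Prtn3, was at 5.93, 33.3 and 51.9 CPM along the CAF-1 OFF arm and at 16.9, 125 and 8.51 CPM along the HOXA9 OFF arm, the rise-and-fall order of Elane. Cfd, which in mouse lies beside Elane, did not exceed 1.43 CPM in any library. Lpo, the peroxidase gene 2016 bases from Mpo, had 1 UMI. Mcpt8, a basophil protease gene beside Ctsg, was at 40.1, 373 and 1159 CPM along the CAF-1 OFF arm and at 164, 17.5 and 0 CPM along the HOXA9 OFF arm, and granzyme genes on the other side of Ctsg had 1 UMI at most. Rab38 beside Ctsc was at 83.5, 224 and 277 CPM along the CAF-1 OFF arm and at 66.8, 19.4 and 1.13 CPM along the HOXA9 OFF arm, where Ctsc rose.

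Among other primary granule proteins, 4 of 6 genes could be counted. Of these, Lyz1 and Prss57 reached the minimum only through libraries in which they were high. Prss57 was at 5.93 and 16.9 CPM at 0 h of CAF-1 OFF and HOXA9 OFF. At 48 h of HOXA9 OFF 3 were called higher and 1 lower, beside 13% and 19.6% of all tested genes. At 96 h 1 was called higher and 1 lower, near the 18.1% and 39.8% of all genes. Cst7, cystatin F, an inhibitor of cathepsin C, was the one that fell, with 308, 130.3 and 9.65 CPM along the HOXA9 OFF arm, and it was at 363, 425 and 439.9 CPM along the CAF-1 OFF arm. Lyz1 was at 0, 44.1 and 213 CPM along the HOXA9 OFF arm and 0, 30.4 and 113 CPM along the CAF-1 OFF arm. Since Lyz1 and Lyz2 are nearly identical its counts are uncertain. Lyz1 is part of every count of higher calls in this list, and Prss57 of each but that at 96 h of HOXA9 OFF. The calls of these genes are not read as a result. In CAF-1 OFF 2 of the 4 were called higher at either time and 0 lower. The 2 were Lyz1 and Prss57, beside 2.76% and 5.22% of all genes called higher.

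Lysosomal hydrolases, which also reach primary granules, were mostly higher in HOXA9 OFF, as Ctsc was. Of 18 genes 11 could be counted, and 6 were called higher and 0 lower at 48 h of HOXA9 OFF and 7 higher and 1 lower at 96 h. Of all tested genes 13% and 18.1% were called higher at these times, and 19.6% and 39.8% lower. The hydrolases had medians of 1.37 and 1.32 on the log2 scale beside -0.23 and -0.56 over all genes tested. Ctsd, an aspartic protease, was at 212, 789 and 1407 CPM and Ctsb, a cysteine protease, at 53.2, 326 and 424 CPM in that arm. Gusb, beta-glucuronidase, was the one called lower, with 189, 164 and 70.9 CPM. In CAF-1 OFF 0 were called at 48 h and 2 higher at 96 h, Ctsd among them. There 2.76% and 5.22% of all tested genes were called higher, and 0.0418% and 0.856% lower.

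Of 13 genes for myeloperoxidase folding and haem synthesis, 9 could be counted. At 48 h of HOXA9 OFF 1 was called higher and 2 lower, about the 13% and 19.6% of all tested genes, and at 96 h 1 was higher and 6 lower, beside 18.1% and 39.8%. Calr, the chaperone calreticulin, was at 1368, 646 and 142 CPM, with a log2 ratio of -1.07 at 48 h while Mpo was at 91.1% of its 0 h level. Alas1, which catalyses the rate-limiting step of haem synthesis, was the one called higher, at 21.2, 181 and 79.4 CPM. In CAF-1 OFF 0 of the 9 were called at 48 h and 1, Alas1, was called higher at 96 h. There 2.76% and 5.22% of all tested genes were called higher, and 0.0418% and 0.856% lower.

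Of 11 protease inhibitors of the cytosol and of secretions, 5 could be counted, of which Serpinb2 reached the minimum only through libraries in which it was high. In all, 3 were called higher and 0 lower at 48 h and 4 higher and 1 lower at 96 h of HOXA9 OFF, beside 13% and 19.6% and then 18.1% and 39.8% of all tested genes. In CAF-1 OFF 2 were called higher at both times and 0 lower, beside 2.76% and 5.22% higher. Serpinb2 is among these 2 and among the 4 at 96 h of HOXA9 OFF, and its calls are not read as a result. Slpi, which inhibits elastase and cathepsin G, was at 141, 2016 and 4342 CPM along the CAF-1 OFF arm and at 152, 1786 and 1398 CPM along the HOXA9 OFF arm. Serpinb1a, the cytosolic inhibitor of the same proteases, was at 1181, 1443 and 1902 CPM and at 1108, 1168 and 464 CPM, and was the one called lower.

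Of the factors known to act at primary granule promoters, 10 of 11 had a column and 9 could be counted. At 48 h of HOXA9 OFF 4 were called higher and 1 lower, beside 13% and 19.6% of all tested genes, and at 96 h 3 higher and 2 lower, beside 18.1% and 39.8%. Myb, a factor of progenitors, was at 261, 93.6 and 19.6 CPM in that arm and at 271, 281 and 261 CPM along the CAF-1 OFF arm. Gfi1, a repressor needed for granulocyte formation, was at 59.7, 28.1 and 4.54 CPM along the HOXA9 OFF arm and at 27.8, 86.2 and 146 CPM along the CAF-1 OFF arm. Cebpe, a factor of late granulocyte maturation, was at 67.4, 510.1 and 785 CPM along the CAF-1 OFF arm and at 82.3, 704 and 625 CPM along the HOXA9 OFF arm. In CAF-1 OFF 3 were called higher and 0 lower at both times, Cebpb, Cebpe and Gfi1, beside 2.76% and 5.22% of all genes. Runx1, among those called higher at 48 h of HOXA9 OFF, was at 15.4 and 13.4 CPM at 0 h of CAF-1 OFF and HOXA9 OFF. It passed the minimum only through later libraries, so its call is not read as a result.

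In the other lists few genes could be counted. The background for HOXA9 OFF was again 13% higher and 19.6% lower at 48 h and 18.1% higher and 39.8% lower at 96 h. For CAF-1 OFF it was 2.76% higher and 0.0418% lower at 48 h and 5.22% higher and 0.856% lower at 96 h. Enzymes that build the chains of serglycin had 3 of 12 genes to count, with 0 called in CAF-1 OFF and 1 higher (Chst12) and 1 lower (Chsy1) at each time of HOXA9 OFF. Granule sorting and release genes had 8 of 14 to count, with 0 called in CAF-1 OFF, 3 higher at 48 h and 3 higher and 1 lower (Ap3s1) at 96 h of HOXA9 OFF. Rab27a, among those called higher at both times, was at 9.73 and 10.5 CPM at 0 h of CAF-1 OFF and HOXA9 OFF. It passed the minimum only through later libraries, so its calls are not read as a result. Other leukocyte granule proteases had 2 of 15 to count, Cpa3 and Mcpt8 of mast cells and basophils, both called higher at either time of CAF-1 OFF, beside 2.76% and 5.22% of all genes, and both lower at 96 h of HOXA9 OFF. The 12 secondary and tertiary granule genes summed to 51.7, 939 and 1433 CPM along the CAF-1 OFF arm and to 48.9, 11045 and 41059 CPM along the HOXA9 OFF arm. Several of them, such as Ltf and Ngp, passed the minimum level only through the later HOXA9 OFF libraries, so no count of calls is read for them.

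Depth, markers of other cell types and filtering moved together with these results. Of 10 neutrophil markers, 3, 9 and 8 had a UMI along the CAF-1 OFF arm and 4, 10 and 10 along the HOXA9 OFF arm, and Ltf, lactoferrin of secondary granules, had none in CAF-1 OFF. Summed eosinophil markers were at 217, 460.3 and 1242 CPM along the CAF-1 OFF arm and at 1469.6, 19278 and 3264 CPM along the HOXA9 OFF arm. Summed mast cell and basophil markers, with 6, 7 and 7 of 9 genes seen along the CAF-1 OFF arm and 8, 8 and 5 along the HOXA9 OFF arm, were at 287, 1469 and 4050.3 CPM and at 829, 533 and 85.1 CPM. The median UMIs per cell and the share of removed barcodes were lowest at 96 h of HOXA9 OFF, where the proteases were lowest too. The part of each in the results was not tested, and 7 genes not expressed in blood cells summed to at most 1.13 CPM.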

How the data were processed

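The authors sorted live cells, made 3′-end libraries with 10x Chromium v2 chemistry and mapped the reads to GRCm38. The submitters' processing notes name Cell Ranger 3.0.1, Scanpy 1.4.6 and Seurat 3.0.1 with mm10, and the study's methods name another Cell Ranger release. The deposited values are raw whole-number UMI counts per gene and barcode, 7821 barcodes by 27998 genes in 1 table, with no normalization by the authors, and all barcodes were assigned to a library by their suffix.

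Kept cells had 200 to 6000 genes and at most 10% mitochondrial UMIs, the study's limits, which left 5872 and removed 1949. Counts were summed per library and scaled to CPM. Scrublet (in Scanpy 1.11.5) called 131 cells, left out only as an alternative. Ratios added 10 CPM, and a call needed a 2-fold difference. For detection each kept cell was thinned to 1300 UMIs, leaving out shallower cells (14, 20 and 9 at 0, 48 and 96 h of CAF-1 OFF, then 1, 28 and 134 of HOXA9 OFF). Classes used 2% of a cell's UMIs. Intervals are exact 95% Poisson or Clopper-Pearson intervals and cover counting error only. Libraries were the only unit of comparison, with 1 per group and no test, and the depth per library sets the precision. TMM factors came from edgeR 4.0.16 in R 4.3.3. Other steps used Python 3.11.15, numpy 2.4.6, scipy 1.17.1, pandas 2.3.3 and matplotlib 3.10.9, and were tested on simulated data. Genes named are the 7 members, Chaf1b, at most 4 extreme genes of a list or those with a direct role beside a member, the 3 genes most like each member and chromosomal neighbours. The members and lists were chosen with earlier results of these data known. Alternatives were the pseudocount, fold, minimum level, scaling, cell filter, doublets, thinning depth and class limit. Sequences and positions came from RefSeq tables of GRCm38.p6.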

Additional observations from a re-analysis of the deposited data

Results flagged for a closer look

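For 9 results the arms moved in opposite directions from their own 0 h library, as a difference of log2 ratios, CAF-1 OFF minus HOXA9 OFF. With 1 library per group the difference was not tested. At 48 h the difference was 2.23 for Ctsg, 0.54 for Mpo and 0.48 for Srgn. The direction in HOXA9 OFF turned for Mpo and Srgn with TMM factors, with median-of-ratios factors and over all barcodes, so that the arms no longer moved in opposite directions there. At 96 h the difference was 8.04 for Ctsg, 5.85 for Mpo, 5.42 for Elane, 5.40 for Prtn3, 5.02 for Ms4a3 and 1.81 for Srgn. Ctsc was the member that was above 0 h at both times in both arms.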

How the results depend on the processing

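No paired analysis was possible because each group had 1 library. Of the 168 recomputed counts of members called, 156 stayed within 1.5 times the reported count. With a 4-fold size, members called higher went from 2 to 1 at 48 h of CAF-1 OFF and from 1 to 0 between 48 and 96 h of that arm, and those called lower went from 1 to 0 at 48 h of HOXA9 OFF and between the uninduced libraries. With a 1.5-fold size, 5 were called higher at 96 h of CAF-1 OFF, 2 between 48 and 96 h of that arm and 1 between 48 and 96 h of HOXA9 OFF, and 2 were called lower between the uninduced libraries. Adding 50 CPM left 3 called lower at 96 h of HOXA9 OFF and 0 between the uninduced libraries, where a 5% mitochondrial limit also left 0. Median-of-ratios factors gave 1 called higher, Ctsc, from 48 to 96 h of HOXA9 OFF (1.04 on the log2 scale against 0.72).

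Of 588 log2 ratios, 453 moved by less than the interval of counting error and 135 by more, and 0 called ratios turned. TMM factors moved the median of all genes by 0.28 at 48 h and 0.43 at 96 h of HOXA9 OFF, and the share of higher calls among all calls from 39.8% to 56.5% and from 31.2% to 46.0%. Median-of-ratios factors moved that share to 53.1% and 48.6%, and between 48 and 96 h of that arm the share was 26.9% by total UMIs, 38.2% with TMM, 47.9% with median-of-ratios factors and 11.9% when mitochondrial and ribosomal protein genes were left out of the total. 

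The share of cells with all 4 of Mpo, Elane, Prtn3 and Ctsg followed the depth. Thinned to 2600 UMIs it came to 11.8%, 48.5% and 71.9% along the CAF-1 OFF arm and 5.78% and 22.3% at 0 and 48 h of HOXA9 OFF, and without thinning 19.0%, 60.1%, 84.0%, 14.6% and 22.7%. Asking for 2 UMIs gave 4.42%, 15.8%, 24.8%, 0.212% and 4.07%. A 5% mitochondrial limit gave 3.75% at 0 h and 41.4% at 96 h of CAF-1 OFF, and 0.472% and 8.05% at 0 and 48 h of HOXA9 OFF, and all barcodes gave 48.3% at 96 h of CAF-1 OFF. Of 84 recomputed levels by class of cells, 47 stayed within their interval. For the moved values the cause was not tested.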
